A study of Mus musculus with 12 samples.

Results

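The BCL2 family of apoptosis regulators was followed through 10 of its genes in mouse kidneys after ischemia and reperfusion, with and without Toll-like receptor 4 (TLR4). The genes are the pro-survival members Mcl1, Bcl2 and Bcl2l1, the effectors Bak1 and Bok, and the BH3-only members Bid, Bad, Bbc3, Bcl2l11 and Pmaip1. Probe sets belong to the family when the array's annotation names exactly 1 gene for them and that gene is 1 of the 10. This rule took 30 of 45101 probe sets. It uses no measured value itself, but the 10 genes were chosen with earlier results of these data known. Of the 30, 27 passed a filter on low signals (above the array's 40th percentile on at least 3 of 12 arrays), together with 30326 probe sets of the whole table, and all 10 genes kept at least 1 probe set among 14322 genes tested. A probe set is a group of short probes on the array for 1 transcript, and a gene was represented by its brightest probe set (by mean log2 value over the arrays).

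Whole kidneys came from 8-week-old male mice of 2 strains, C57BL/10ScNJ (genotype TLR4-/-, called TLR4 null) and C57BL/10 (wild type), with 3 ischemic and 3 sham-operated mice of each. TLR4 is an innate immune receptor that binds bacterial lipopolysaccharide. Every mouse, sham mice included, lost its right kidney; in ischemic mice the left renal pedicle was then clamped for 23 min, in sham mice the clip was only laid under it, and the left kidney was taken at 4 h of reperfusion. Since the genotypes are different substrains, the loss of Tlr4 cannot be told apart from other differences between them.

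Proteins of this family decide whether the outer mitochondrial membrane stays intact. The effectors form pores in it that let cytochrome c out, which starts the apoptosome and the caspases; pro-survival members hold the effectors in check; and BH3-only members, named for the 1 domain they share with the rest, respond to stress by neutralising the pro-survival members or by acting on the effectors directly. Tubular epithelial cells of the kidney die in part by this route after ischemia.

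The tables hold MAS5 signal intensities, a linear measure of a probe set's brightness, with 1 trimmed mean of 250 on every array. Median signals per array lay between 61.2 and 77.4, and log2 values of arrays in a group correlated at r = 0.963 to 0.979 across genes. Tlr4, the gene that TLR4 null mice lack, gave signals of 0.9 to 3.38 on TLR4 null arrays and of 65.58 to 120.37 on wild-type arrays at 1 of its 4 probe sets, named here because it separated the strains most. A second Tlr4 probe set gave 6.33 to 60.37 on TLR4 null and 72.94 to 134.76 on wild-type arrays, without overlap but not called (limma adjusted p = 0.333 in ischemic and 0.556 in sham kidneys), and the other 2 did not pass the filter and overlapped. The deleted stretch was not mapped to these probe sets here. All 6 proximal tubule markers and all 5 markers of the loop of Henle and distal tubule were measured, with summed signals of 26271.9 to 37250.1 and 29118.8 to 38653.1. No other tissue is present to set these sums against, so they are no test of the kidney label. An array control for the 3' end of 18S ribosomal RNA gave 1410.4 to 2645.9 on TLR4 null ischemic arrays, 534.6 to 574.1 on wild-type ischemic arrays, 303.7 to 476.5 on TLR4 null sham arrays and 373.3 to 406.4 on wild-type sham arrays. Its highest values thus lie in 1 of the groups compared, and its part in the results was not tested. In RNA from whole kidney, fewer cells of a type and less RNA per cell cannot be told apart.

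Ischemia changed some family genes upward and some downward in each genotype. In TLR4 null kidneys Mcl1, Bcl2l1 and Pmaip1 rose and Bid and Bad fell, 5 of 10 genes at an adjusted p under 0.05 in limma (a linear model across all genes, with Benjamini-Hochberg adjustment); among all genes tested, 21.6% passed, 9.86% higher and 11.7% lower. In wild-type kidneys Mcl1, Bcl2l1 and Pmaip1 rose and Bid and Bcl2 fell, again 5 of 10, against 19.6% of all genes, 9.17% higher and 10.5% lower. Over all genes this wild-type split of 1313 higher and 1501 lower became 1239 and 549 with arrays scaled to 1 median. The median log2 fold change of the 10 genes was 0.04 in TLR4 null and 0.09 in wild-type kidneys, where the median over all genes was -0.07 and -0.09. Signals of ischemic and sham kidneys did not overlap in 6 of 10 genes in TLR4 null kidneys, against 34% of all genes, and in 7 of 10 in wild-type kidneys, against 39.3%. Fold changes here and below are differences of log2(signal + 15), ischemic minus sham unless stated otherwise, given ± SE with 3 arrays per group; the added 15 makes the fold of a dim gene look smaller than it is.

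**Figure D1:**
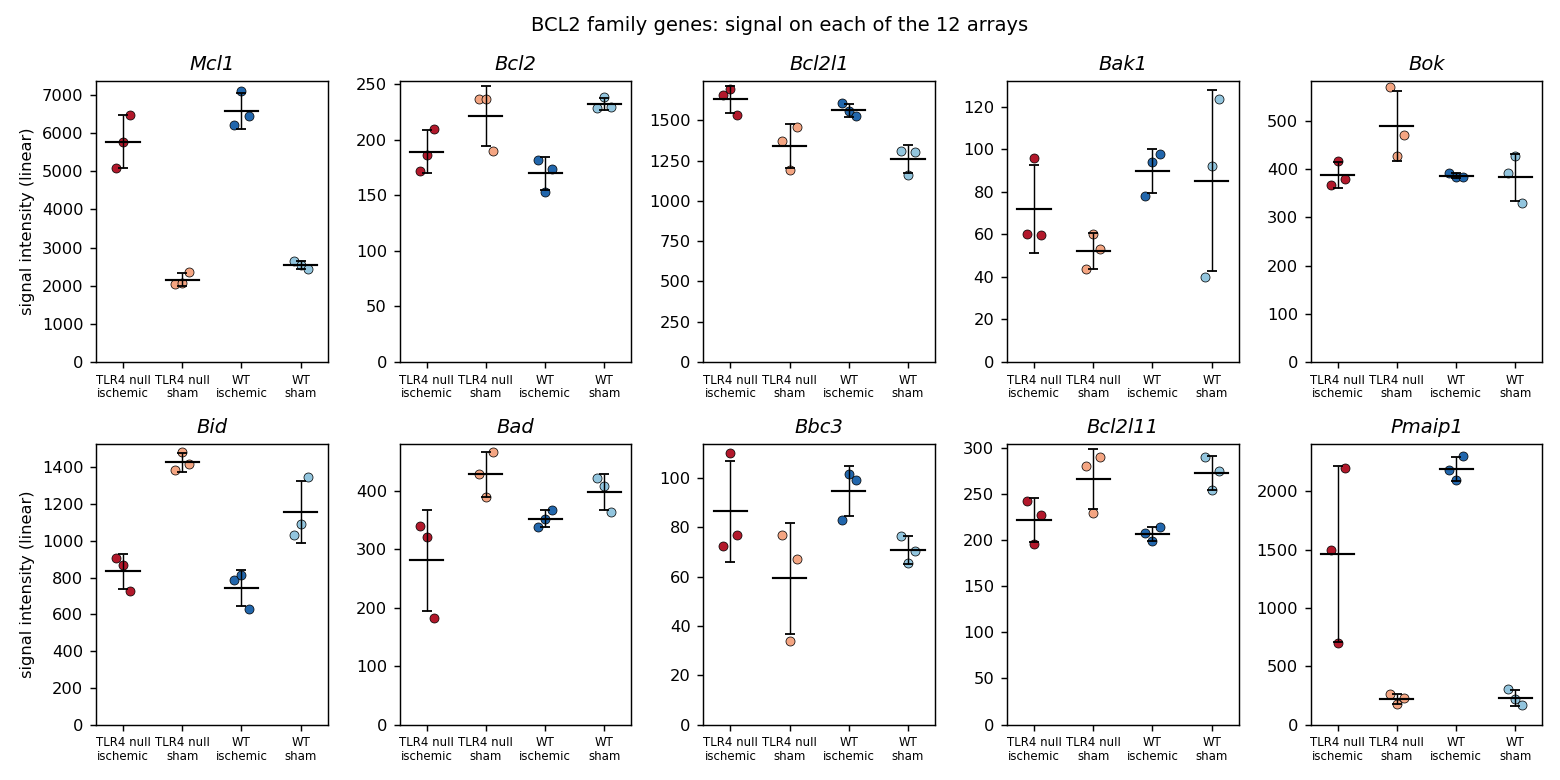
Signal intensity (linear axis from 0) of the representative probe set of each of the 10 genes on all 12 arrays, with TLR4 null ischemic, TLR4 null sham, wild-type (WT) ischemic and WT sham kidneys from left to right; points are arrays, long bars the mean and whiskers ± 1 SD (n = 3). The ischemic arrays of Mcl1 and Pmaip1 lie above every sham array, those of Bid lie below every sham array, and the points of Bak1 mix.

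**Figure D2:**
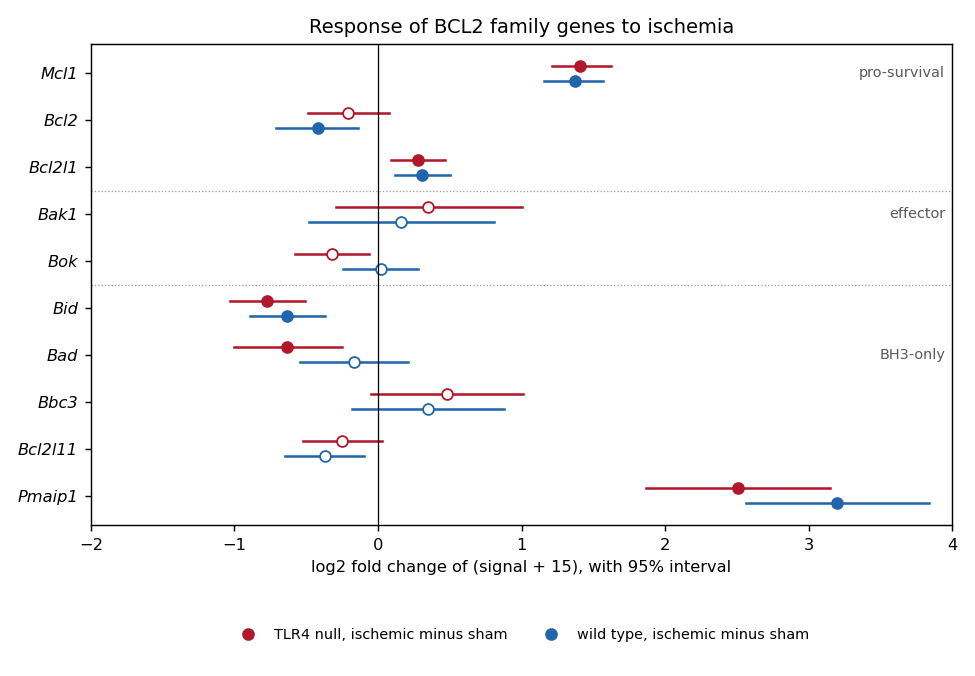
Log2 fold change of (signal + 15), ischemic minus sham, for each gene in TLR4 null (red, upper) and wild-type kidneys (blue, lower), with its 95% interval; filled points passed an adjusted p of 0.05 in limma and open points did not. Dotted lines separate the pro-survival, effector and BH3-only genes, and Pmaip1 and Mcl1 stand farthest to the right.

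Mcl1 encodes a short-lived pro-survival protein that binds BAK and several BH3-only proteins. The gene (GeneID 17210) spans positions 95656944 to 95663179 of chromosome 3 in GRCm38.p6. Its signals were 5081.5, 5763.2 and 6485.1 in TLR4 null ischemic kidneys, against 2034, 2074.1 and 2348.5 in TLR4 null sham kidneys. Wild-type ischemic kidneys gave 6207, 7110.8 and 6437, against 2641.1, 2542.7 and 2444.7 in wild-type sham kidneys. All 6 ischemic arrays stood above all 6 sham arrays. The rise was 1.41 ± 0.09 in TLR4 null (2.66-fold, limma adjusted p = 1.08e-07) and 1.37 ± 0.09 in wild-type kidneys (2.58-fold, limma adjusted p = 1.64e-07). Group means were 5777 in TLR4 null ischemic, 6585 in wild-type ischemic, 2152 in TLR4 null sham and 2543 in wild-type sham kidneys. At the representative probe set the ischemic groups overlapped and the sham groups did not. Mcl1 has 6 probe sets, and each of them rose in both genotypes, by 0.75 to 1.60 in TLR4 null and by 0.59 to 1.49 in wild-type kidneys (limma, adjusted over all 30326 probe sets). Probe sets of 1 gene share its RNA and are not replicates of the change.

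The promoter of Mcl1 is shown because this gene moved with the smallest p of the family in both genotypes. The stretch is the 300 bases from 250 before the start site that RefSeq's promoter table gives (build GRCm38.p6), chr3:95658471-95658770 on the plus strand, and this start site lies within the gene's span. Capitals mark, from left to right, an ETS match (CCGGAAG, 63 to 57 bases before the start), a GC box read on the opposite strand (GGGCGG) and, 16 to 20 bases after the start, the core of a cyclic AMP response element read on the opposite strand (TGACG).
Mcl1: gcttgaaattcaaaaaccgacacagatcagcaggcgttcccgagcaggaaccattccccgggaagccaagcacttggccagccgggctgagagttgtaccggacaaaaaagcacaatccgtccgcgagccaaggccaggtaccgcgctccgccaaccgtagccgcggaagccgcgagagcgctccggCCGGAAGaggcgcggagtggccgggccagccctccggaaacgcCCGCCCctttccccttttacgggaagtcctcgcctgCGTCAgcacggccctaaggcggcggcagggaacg
The ETS letters occur in 8.86% of 32851 RefSeq promoter windows of this length, the GC box in 35.7% and the element core in 20.8%, each counted on both strands. A match describes the letters and is not a measured binding site.

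Bcl2l1, whose main product BCL-XL is a long-lived pro-survival protein, rose by less than Mcl1 did. It lies on chromosome 2 from 152758732 to 152833803 (GeneID 12048). Signals were 1660, 1696.9 and 1532.5 in TLR4 null ischemic kidneys, against 1369.5, 1192.7 and 1457.7 in TLR4 null sham kidneys. In wild-type ischemic kidneys they were 1605.9, 1555.6 and 1526.7, against 1309, 1157.5 and 1306.3 in wild-type sham kidneys. Ischemic arrays lay above sham arrays without overlap in each genotype. The rise was 0.28 ± 0.09 in TLR4 null (limma adjusted p = 0.0345) and 0.31 ± 0.09 in wild-type kidneys (limma adjusted p = 0.0229). A second probe set changed by 0.40 ± 0.16 in TLR4 null (limma adjusted p = 0.107) and rose by 0.51 ± 0.16 in wild-type kidneys (limma adjusted p = 0.0411). The third rose by 0.93 ± 0.28 in TLR4 null kidneys (limma adjusted p = 0.0346) with overlapping groups, since 1 ischemic array, at 88.9, lay among sham arrays of 69.9, 85.4 and 89.3; in wild-type kidneys it changed by 0.31 ± 0.28 (limma adjusted p = 0.523). The fourth did not pass the filter. With arrays scaled to 1 median, the Bcl2l1 call ended in both genotypes, at an adjusted p of 0.139 in TLR4 null and 0.0515 in wild-type kidneys (limma), and it also ended without the trend in limma, at 0.078 and 0.0587. In TLR4 null kidneys alone the Bcl2l1 call also ended with quantile normalization (limma adjusted p = 0.0516) and with only the arrays compared (limma adjusted p = 0.0869), and in wild-type kidneys alone with the mean of its probe sets (limma adjusted p = 0.0827). It ended without TLR4 null ischemic replicate 1 or 2 or TLR4 null sham replicate 1 or 2 in TLR4 null kidneys (limma adjusted p up to 0.154), and without wild-type ischemic replicate 1 or 2 or wild-type sham replicate 2 in wild-type kidneys (limma adjusted p up to 0.106).

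Bcl2, the founding pro-survival gene of the family (chromosome 1, 106538176 to 106714290, GeneID 12043), fell in wild-type kidneys. TLR4 null ischemic kidneys gave 172, 186.1 and 210, against 237.2, 236.5 and 190.3 in TLR4 null sham kidneys, so that 1 sham array lay within the ischemic range. The difference there was -0.21 ± 0.13 (limma adjusted p = 0.315). Wild-type ischemic kidneys gave 182, 153.4 and 173.8, against 228.7, 238.6 and 230 in wild-type sham kidneys, with no overlap. The wild-type change was -0.42 ± 0.13 (limma adjusted p = 0.0354). The 5 probe sets of Bcl2 did not move together, with values of -0.21 to 0.04 in TLR4 null kidneys, where 0 were called, and of -0.47 to 0.45 in wild-type kidneys, where 1 was called. With the mean of the probe sets in place of the brightest, the wild-type value was -0.15 (limma adjusted p = 0.57). The wild-type Bcl2 call also ended with arrays scaled to 1 median (-0.34, limma adjusted p = 0.167). It ended as well without the filter (limma adjusted p = 0.053) and with the replicate number as a block (limma adjusted p = 0.0555). The call missed the threshold too when any 1 of the 6 wild-type arrays was left out (limma adjusted p up to 0.12).

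Neither effector gene followed here, Bak1 or Bok, passed the test in either genotype. The effector gene Bax was not among the genes tested, so its response is not given. Bak1, which encodes a pore-forming protein of the outer mitochondrial membrane, gave 60.1, 95.9 and 59.9 in TLR4 null ischemic kidneys, against 43.6, 60.2 and 53 in TLR4 null sham kidneys. Its wild-type ischemic values were 77.9, 93.9 and 97.8, against 39.8, 92.2 and 123.9 in wild-type sham kidneys, which spanned the whole ischemic range. The differences were 0.35 ± 0.30 in TLR4 null (95% interval -0.29 to 1.00, limma adjusted p = 0.471) and 0.16 ± 0.30 in wild-type kidneys (-0.48 to 0.81, limma adjusted p = 0.762). Both intervals span more than 1 log2 unit. Bok, a relative of BAK that resides largely on the endoplasmic reticulum, gave 366.2, 417.8 and 378.7 in TLR4 null ischemic kidneys, against 570.9, 428.2 and 470.1 in TLR4 null sham kidneys. Those groups did not overlap, but the difference of -0.32 ± 0.12 missed the threshold (limma adjusted p = 0.0804). Bok gave 392.5, 383.1 and 383.9 in wild-type ischemic kidneys, against 391.9, 427.1 and 330.5 in wild-type sham kidneys. That difference was 0.02 ± 0.12 (95% interval -0.24 to 0.28, limma adjusted p = 0.937).

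Pmaip1, which encodes NOXA, a BH3-only protein that binds MCL1, had the largest rise among the 10 genes in both genotypes. It lies on chromosome 18 from 66458604 to 66465558 (GeneID 58801) and has 1 probe set. Signals were 1492, 697.9 and 2200.5 in TLR4 null ischemic kidneys, against 262.7, 176.4 and 225.9 in TLR4 null sham kidneys. Wild-type ischemic kidneys gave 2180.3, 2096.5 and 2300.1, against 302.6, 222.3 and 167.8 in wild-type sham kidneys. The 3 wild-type ischemic arrays lay close together, at 2192 ± 102.3 (mean ± SD), while the TLR4 null ischemic arrays were spread, at 1463 ± 751.7. The rise was 2.51 ± 0.30 in TLR4 null (5.71-fold, limma adjusted p = 2.92e-05) and 3.20 ± 0.30 in wild-type kidneys (9.20-fold, limma adjusted p = 2.77e-06). On the lowest TLR4 null ischemic array, replicate 2, the AP-1 genes Jun and Fos and the co-chaperone gene Bag3 were also lowest of their group: Jun gave 2522.2 there, against 4685.8 and 11179.6 on the other arrays of the group, and Fos gave 1481.3 against 2982.2 and 5666. Not every gene that rose was lowest on replicate 2. Egr1 and Tnfrsf12a were lowest of the group on replicate 1, at 2868.1 and 3205.1. Tnfrsf12a and Myc were highest of the group on replicate 2, at 6885 and 1347.8. The 18S control was also highest on replicate 2, at 2645.9. These genes were singled out after their values were seen, and the part of the array itself was not tested.

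Of the 5 BH3-only genes followed here, Bid fell in both genotypes. Its protein links death receptors to mitochondria, because caspase 8 cuts it into an active fragment. It lies on chromosome 6 from 120893119 to 120917062 (GeneID 12122). Signals were 908.4, 865.9 and 727.1 in TLR4 null ischemic kidneys, against 1384.2, 1485.4 and 1416.3 in TLR4 null sham kidneys. Wild-type ischemic kidneys gave 786, 812.3 and 630.4, against 1030.6, 1089.1 and 1348.7 in wild-type sham kidneys. Every ischemic array lay under every sham array. The change was -0.77 ± 0.12 in TLR4 null (limma adjusted p = 0.00035) and -0.63 ± 0.12 in wild-type kidneys (limma adjusted p = 0.00189). All 3 probe sets fell in TLR4 null kidneys, with changes of -0.77 to -0.65, and 2 of 3 did in wild-type kidneys, where the other gave -0.40 ± 0.14 (limma adjusted p = 0.0628). In each genotype the 3 probe sets separated ischemic from sham arrays without overlap.

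The Bid promoter is shown as the one of a gene that fell in both genotypes. It is chr6:120916775-120917074 of GRCm38.p6 on the minus strand, from RefSeq's promoter table, printed in the gene's direction, and capitals mark 3 GC boxes (GGGCGG) between 66 and 28 bases before the start.
Bid: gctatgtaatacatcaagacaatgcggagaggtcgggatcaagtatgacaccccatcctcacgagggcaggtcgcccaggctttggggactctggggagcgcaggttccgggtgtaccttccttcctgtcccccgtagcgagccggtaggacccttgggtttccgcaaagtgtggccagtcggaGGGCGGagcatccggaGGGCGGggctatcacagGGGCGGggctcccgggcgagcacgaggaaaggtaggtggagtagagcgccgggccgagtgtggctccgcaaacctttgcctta
Across the family, 10 of 15 promoter windows, from 7 of the 9 genes matched in that table (all but Pmaip1), held a GC box, against 35.7% of all windows; windows of 1 gene can overlap. None of the 15 held the AP-1 letters TGANTCA (7.81% of all windows), the STAT letters TTCNNNGAA (8.3%) or the p53 decamer (8.36%), which says only that these letters are not in these windows. The heat shock letters GAANNTTC (7.86%) were found for 1 gene, Bad, where they overlap a GC box by 1 base. Windows and motifs were picked with the values known.

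Bad, whose BH3-only protein is held inactive by phosphorylation downstream of growth factor signals, was called in TLR4 null kidneys. The gene lies on chromosome 19 from 6941861 to 6951905 (GeneID 12015). Signals were 340.2, 320 and 182 in TLR4 null ischemic kidneys, against 429.3, 388.9 and 465.3 in TLR4 null sham kidneys. The groups did not overlap, and 1 ischemic array, replicate 3, lay well under the others. In wild-type kidneys ischemic arrays gave 337.8, 352.2 and 367.2, against 422.2, 408 and 362.8 on sham arrays, which overlap. The change was -0.63 ± 0.18 in TLR4 null (limma adjusted p = 0.0183), and the wild-type difference was -0.17 ± 0.18 (limma adjusted p = 0.567). Without the low array the TLR4 null value was -0.36 (limma adjusted p = 0.0416), and without TLR4 null sham replicate 3 it was -0.57 and missed the threshold (limma adjusted p = 0.0715). The other Bad probe set gave -0.12 ± 0.13 in TLR4 null and -0.23 ± 0.13 in wild-type kidneys and was not called (limma adjusted p = 0.607 and 0.263).

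Bbc3 and Bcl2l11 did not pass in either genotype. Bbc3, which encodes PUMA, a BH3-only protein known as a p53 target, gave 72.5, 110.1 and 76.7 in TLR4 null ischemic kidneys, against 76.9, 33.8 and 67.1 in TLR4 null sham kidneys. Wild-type ischemic kidneys gave 82.9, 101.6 and 99.3, against 76.5, 65.4 and 70.5 in wild-type sham kidneys, without overlap. The differences were 0.48 ± 0.25 (95% interval -0.05 to 1.01, limma adjusted p = 0.197) and 0.35 ± 0.25 (-0.18 to 0.88, limma adjusted p = 0.371) in TLR4 null and wild-type kidneys. Bcl2l11, which encodes BIM, a BH3-only protein that binds all pro-survival members, gave 242.6, 195.4 and 227.3 in TLR4 null ischemic kidneys, against 279.9, 229.1 and 290 in TLR4 null sham kidneys. Wild-type ischemic kidneys gave 207.4, 198.5 and 213.8, against 289.5, 253.7 and 274.3 in wild-type sham kidneys, without overlap. Its differences were -0.25 ± 0.13 in TLR4 null (limma adjusted p = 0.197) and -0.37 ± 0.13 in wild-type kidneys (limma adjusted p = 0.052). That wild-type value lay just beyond the threshold, and it passed under 5 of the other settings tried, among them quantile normalization (limma adjusted p = 0.0455) and a stricter filter at the 60th percentile (limma adjusted p = 0.0379). It lay farther from the threshold with median scaling (limma adjusted p = 0.192), and with the mean of its probe sets the Bcl2l11 difference was -0.11 (limma adjusted p = 0.672). The other 3 Bcl2l11 probe sets past the filter ran from -0.33 to 0.24 in TLR4 null kidneys and from -0.38 to 0.22 in wild-type kidneys, and none was called.

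Both genes are described as targets of FOXO transcription factors. The letters GTAAACA were found in 1 of the 3 promoter windows of Bbc3 and in 1 of the 2 of Bcl2l11. These were 2 of the 15 family windows, against 3.65% of all windows. The 30 bases around each match (GRCm38.p6, RefSeq's promoter table) are shown with those letters in capitals, for Bbc3 at chr7:16310082-16310111 and for Bcl2l11 at chr2:128125799-128125828, both on the plus strand; the Bbc3 match is read on the opposite strand.
Bbc3: gtctggcgggttTGTTTACaaacaatgggg
Bcl2l11: caagacactaggGTAAACAcgccggggtgg
Of the FOXO genes measured, Foxo3 fell, with a change of -0.75 ± 0.11 in TLR4 null (limma adjusted p = 0.000155) and of -0.84 ± 0.11 in wild-type kidneys (limma adjusted p = 5.87e-05). Foxo1 gave -0.24 ± 0.09 and -0.23 ± 0.09 and was not called (limma adjusted p = 0.0853 and 0.105). The part of FOXO factors in the values of Bbc3 and Bcl2l11 was not tested.

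**Figure D3:**
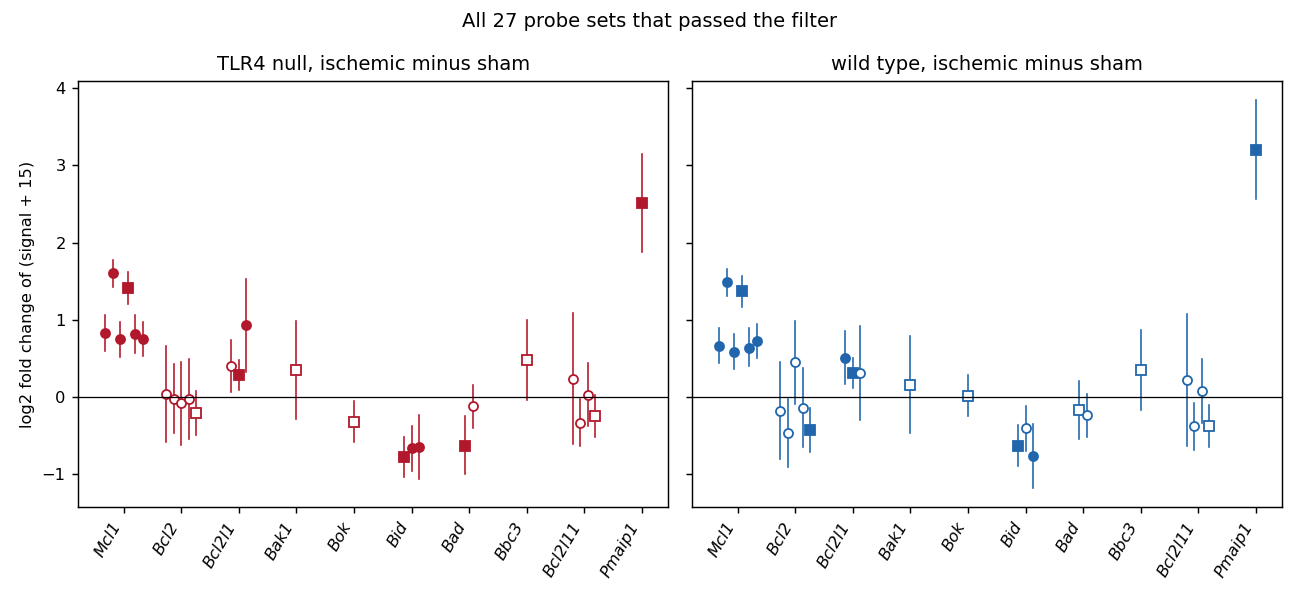
Log2 fold change of (signal + 15), ischemic minus sham, with its 95% interval for the 27 probe sets of the family past the filter, in TLR4 null kidneys (left) and wild-type kidneys (right); squares are the probe sets that represent a gene, and filled symbols passed an adjusted p of 0.05 over 30326 probe sets. The 6 Mcl1 symbols and the 3 Bid symbols each lie on 1 side of 0 in both panels, while those of Bcl2 and Bcl2l11 scatter about it.

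Over single probe sets, 9 of 27 rose and 4 fell in TLR4 null kidneys, against 8.49% and 8.23% of all probe sets, and 9 rose and 3 fell in wild-type kidneys, against 7.71% and 7.91%. Of the 9 that rose, 6 in each genotype belong to Mcl1. The 3 probe sets that did not pass the filter, 1 each for Bcl2l1, Bak1 and Bcl2l11, stayed at signals of at most 47.5 on every array and are given no fold change.

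No gene of the family passed the test for a difference in response between the genotypes. The interaction, which is the TLR4 null response minus the wild-type response, was called for 0 of 10 genes, and 0 of 10 had an unadjusted p under 0.05; over all genes it was called for 0 of 14322 in limma, a share of 0%, with 913 (6.37%) under an unadjusted p of 0.05. Adjusted p ran from 0.804 to 0.986. For Mcl1 the difference of responses was 0.05 ± 0.13, with a 95% interval of -0.24 to 0.33, so a difference beyond 0.33 either way lies outside the interval. For Pmaip1 it was -0.69 ± 0.42, with an interval of -1.59 to 0.21. Bad (-0.46 ± 0.25, -0.99 to 0.07) and Bok (-0.34 ± 0.17, -0.71 to 0.03) had intervals that reach just past 0. Bad, called in TLR4 null kidneys only, and Bcl2, called in wild-type kidneys only (interaction 0.22 ± 0.19), are therefore not shown to differ in response. The responses of the 2 genotypes come from separate mice and share no controls.

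Set against wild-type ischemic kidneys, TLR4 null ischemic kidneys had 0 of 10 genes called, where 0.656% of all genes were. Pmaip1 alone was under an unadjusted p of 0.05 (11.4% of all genes were), at -0.72 ± 0.30 (unadjusted p = 0.0288, limma adjusted p = 0.362). Its TLR4 null and wild-type arrays overlapped, since TLR4 null replicate 3, at 2200.5, lay within the wild-type range. That value was -0.27 without TLR4 null ischemic replicate 2 and -1.09 without replicate 3. No gene of the family separated the ischemic groups without overlap, where 14.7% of all genes did.

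In sham kidneys, TLR4 null against wild type, 0 of 10 genes were called, against 0.314% of all genes. Under an unadjusted p of 0.05 were 3 genes (9.35% of all genes were), Bok at 0.34 ± 0.12, Bid at 0.31 ± 0.12 and Mcl1 at -0.24 ± 0.09, with limma adjusted p of 0.34 for Bok and 0.402 for the other two. The same 3 genes separated the sham groups without overlap, where 16.7% of all genes did. This holds for their representative probe sets. A further probe set of Mcl1 (-0.17 ± 0.08) and of Bid (0.33 ± 0.14) did so too. Others overlapped, among them those of Mcl1 at -0.06 ± 0.10 and of Bid at 0.15 ± 0.19. Bok gave 428.2 to 570.9 in TLR4 null sham kidneys, against 330.5 to 427.1 in wild-type sham kidneys, so its ranges nearly touch. Bid gave 1384.2 to 1485.4 in TLR4 null sham kidneys, against 1030.6 to 1348.7 in wild-type sham kidneys, and Mcl1 gave 2034 to 2348.5 against 2444.7 to 2641.1.

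Related genes were counted over 5 lists put together by role, with earlier results of these data known. Over all genes tested, 21.6% were called in TLR4 null kidneys (9.86% higher, 11.7% lower) and 19.6% in wild-type kidneys (9.17% higher, 10.5% lower), and each list's count is to be read against these shares. Of 9 other family genes measured, 2 fell and 0 rose in each genotype, close to the share called over all genes (median -0.19 in TLR4 null and -0.23 in wild-type kidneys, against -0.07 and -0.09 over all genes). Bmf, a BH3-only gene whose protein binds the dynein light chain, gave 107.6, 88.8 and 102.4 in TLR4 null ischemic kidneys, against 228.7, 223.7 and 220.9 in TLR4 null sham kidneys. Its change was -1.07 ± 0.14 (limma adjusted p = 6.1e-05) in TLR4 null and -1.23 ± 0.14 (limma adjusted p = 1.55e-05) in wild-type kidneys, where ischemic arrays gave 109.8, 118 and 138.1 and sham arrays 278.2, 336.5 and 302.6. Bnip3, whose product acts in mitophagy, fell, with changes of -0.48 ± 0.07 in TLR4 null (limma adjusted p = 0.000295) and -0.37 ± 0.07 (limma adjusted p = 0.00236) in wild-type kidneys. Among those not called, the pro-survival gene Bcl2l2 gave 0.14 ± 0.12 in TLR4 null and -0.23 ± 0.12 in wild-type kidneys, and the BH3-only gene Hrk gave -0.19 ± 0.19 and -0.40 ± 0.19.

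Downstream of mitochondria, 14 genes of the apoptosome, the caspases and their inhibitors were measured, of which 1 rose in each genotype, 3 fell in TLR4 null and 2 fell in wild-type kidneys (median -0.08 and -0.23). The 4 and 3 calls are near the share over all genes. Apaf1, the scaffold of the apoptosome, rose by 0.69 ± 0.18 in TLR4 null (limma adjusted p = 0.0107) and by 0.57 ± 0.18 in wild-type kidneys (limma adjusted p = 0.0326). Endog and Aifm1, which encode mitochondrial proteins that can be released to the nucleus, fell as well, with changes of -0.74 ± 0.10 and -0.58 ± 0.07 in TLR4 null and of -0.83 ± 0.10 and -0.46 ± 0.07 in wild-type kidneys (limma adjusted p at most 0.000368). The executioner caspase gene Casp6 fell in TLR4 null kidneys (-0.46 ± 0.14, limma adjusted p = 0.027) and gave -0.25 ± 0.14 in wild-type kidneys (limma adjusted p = 0.245), and the interaction did not pass (limma adjusted p = 0.901). Birc5, which encodes survivin, was the gene of this list that differed between genotypes: TLR4 null sham kidneys gave 10.5, 62.1 and 10, against 227.1, 166.5 and 141.7 in wild-type sham kidneys. Its sham difference was -2.38 ± 0.37 (limma adjusted p = 0.0173). The TLR4 null signals of 10.5 and 10 lie under 14.6, the 20th percentile of all signals. The size of this difference therefore depends on the added 15. In ischemic kidneys the difference was -1.32 ± 0.37 and missed the threshold (limma adjusted p = 0.135).

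The receptor side of apoptosis had 8 measured genes, of which 3 rose in TLR4 null and 4 in wild-type kidneys and 0 fell (median 0.35 and 0.47). Tnfrsf12a, the receptor of the cytokine TWEAK, rose by 3.36 ± 0.22 in TLR4 null (limma adjusted p = 8.35e-08) and by 3.11 ± 0.22 in wild-type kidneys (limma adjusted p = 1.9e-07). Cflar, which encodes the caspase 8 inhibitor c-FLIP, rose by 1.53 ± 0.13 and 1.24 ± 0.13, and Tnfrsf1a, the main receptor of tumour necrosis factor, by 0.76 ± 0.11 and 0.63 ± 0.11 (limma adjusted p at most 0.00059). Casp8, the protease that cuts BID, gave -0.08 ± 0.09 in TLR4 null kidneys (limma adjusted p = 0.605) and rose by 0.30 ± 0.09 in wild-type kidneys (limma adjusted p = 0.0295). Its interaction was -0.38 ± 0.13 and did not pass (limma adjusted p = 0.651). Fas was not called, at -0.57 ± 0.20 in TLR4 null (limma adjusted p = 0.0541) and -0.01 in wild-type kidneys.

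Of 12 measured transcription factors known to act on family genes, 9 rose and 1 fell in each genotype (median 1.35 in TLR4 null and 1.24 in wild-type kidneys). Ddit3, which encodes the stress factor CHOP, gave 1555.1, 1310.3 and 1590 in TLR4 null ischemic kidneys, against 287.6, 254.9 and 234.7 in TLR4 null sham kidneys. It rose by 2.45 ± 0.11 there (limma adjusted p = 2.15e-09) and by 2.32 ± 0.11 in wild-type kidneys (limma adjusted p = 3.09e-09). Atf4, its partner in the integrated stress response and a known activator of Pmaip1, rose by 1.70 ± 0.11 and 1.50 ± 0.11, and Myc by 2.55 ± 0.18 and 2.56 ± 0.18 in TLR4 null and wild-type kidneys (limma adjusted p at most 2.54e-07). The zinc finger factor Egr1 rose by 4.08 ± 0.28 and 4.61 ± 0.28 and Fos by 4.27 ± 0.34 and 4.80 ± 0.34. Jun, Stat3, Rela and Hif1a were the other 4 that rose, by at least 0.54 in TLR4 null and 0.56 in wild-type kidneys, and Foxo3 was the one that fell. Between genotypes, Foxo1 was higher in TLR4 null than in wild-type kidneys, by 0.46 ± 0.09 after ischemia (limma adjusted p = 0.0362) and by 0.47 ± 0.09 in sham kidneys (limma adjusted p = 0.0464), with 674.3 to 736.3 against 484.6 to 543.9 in ischemic and 769 to 889.8 against 565.1 to 631.3 in sham kidneys. Stat3 was lower in TLR4 null than in wild-type sham kidneys, with a difference of -0.47 ± 0.09 (limma adjusted p = 0.0353). In ischemic kidneys its difference was -0.39 ± 0.09, without overlap, and just missed the threshold (limma adjusted p = 0.0555).

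Among 20 genes whose products regulate family proteins, 1 rose and 1 fell in TLR4 null kidneys, under the share called over all genes, and 3 rose and 1 fell in wild-type kidneys, near it (median 0.02 and -0.02). Bag3, a heat-inducible co-chaperone that stabilises pro-survival proteins, rose by 1.69 ± 0.34 in TLR4 null (limma adjusted p = 0.00227) and by 2.79 ± 0.34 in wild-type kidneys (limma adjusted p = 3.51e-05), and its interaction of -1.10 ± 0.48 did not pass (limma adjusted p = 0.75). Its TLR4 null ischemic signals of 900.8, 578.8 and 1957 were spread as those of Pmaip1 were, against 501.8, 207.5 and 264.1 in TLR4 null sham kidneys. Bag4 fell, with a change of -0.60 ± 0.13, in both genotypes (limma adjusted p = 0.00458 and 0.00482). Huwe1, the ubiquitin ligase that marks MCL1 for degradation, gave 0.25 ± 0.09 in TLR4 null kidneys (limma adjusted p = 0.0732) and rose by 0.39 ± 0.09 in wild-type kidneys (limma adjusted p = 0.00749). Pim1, a kinase that phosphorylates BAD, gave 0.49 ± 0.17 in TLR4 null kidneys (limma adjusted p = 0.052) and rose by 0.70 ± 0.17 in wild-type kidneys (limma adjusted p = 0.00884). Listed genes without a measured probe set are not analysed here.

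**Figure D4:**
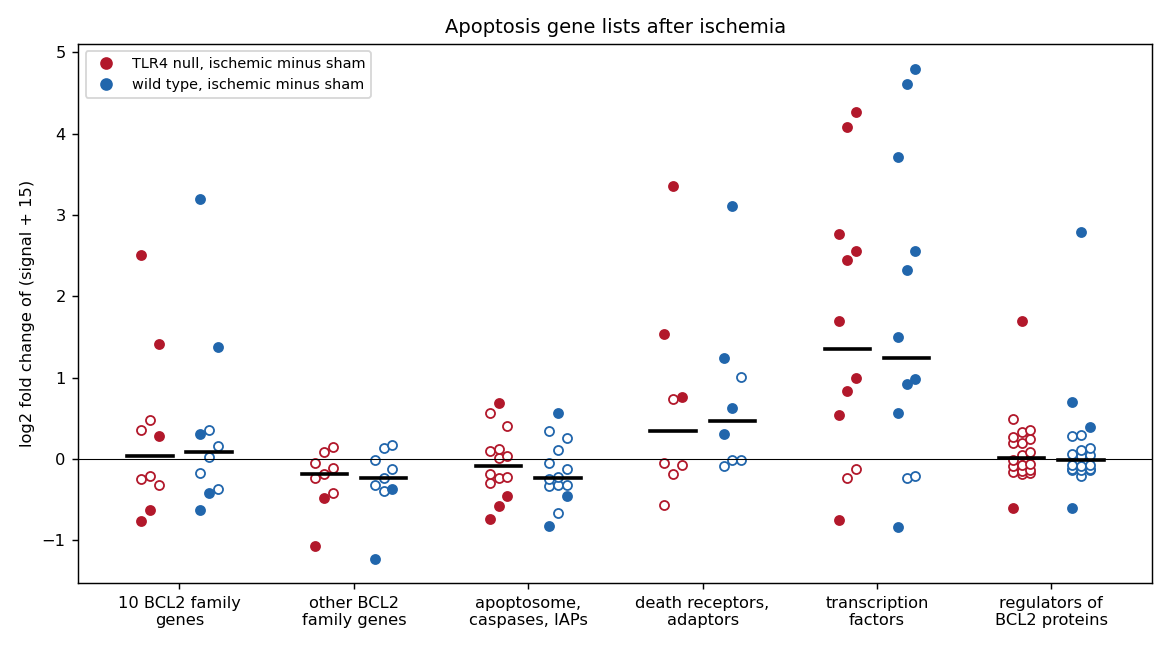
Log2 fold change of (signal + 15), ischemic minus sham, of every measured gene in the family and in 5 lists of related genes, in TLR4 null (red, left) and wild-type kidneys (blue, right); filled points passed an adjusted p of 0.05 in limma and black bars are list medians. The transcription factors have the highest medians, 1.35 and 1.24, and the other BCL2 family genes lie close to or under 0.

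A few leukocyte markers moved beside these genes, and most were not called. Of 5 neutrophil markers measured, S100a8 and S100a9 rose in both genotypes (S100a9 by 1.09 ± 0.22 in TLR4 null and 1.52 ± 0.22 in wild-type kidneys), and the granule genes Mpo and Elane gave signals of at most 96 on every array. Mpo, Elane and Csf3r were not called, and the median of the 5 was 0.11 in TLR4 null and -0.22 in wild-type kidneys. Of 3 lymphocyte markers measured, 0 were called in either genotype. The summed neutrophil signal was 533.8 to 783.5 in TLR4 null ischemic, 861.9 to 1369.2 in wild-type ischemic, 300.9 to 455.6 in TLR4 null sham and 463.1 to 587.5 in wild-type sham kidneys. Of 6 monocyte and macrophage markers, 1 rose and 0 fell in TLR4 null kidneys and 1 rose and 1 fell in wild-type kidneys (median -0.19 and -0.21). Cd68 was the one that rose, by 1.02 ± 0.19 and 0.94 ± 0.19. Csf1r was the one that fell, with a change of -0.35 ± 0.09 in wild-type kidneys (limma adjusted p = 0.00881). Adgre1, Ccr2 and Mrc1, not called, gave -0.35 to -0.17 over both genotypes. Lyz2, also not called, had higher ischemic than sham means, 271.9 against 223.1 in TLR4 null and 392.1 against 377 in wild-type kidneys. The sums of the 6 were 1694.2 to 1925.3 and 1861.3 to 2057.6 in TLR4 null and wild-type ischemic kidneys, against 1801.1 to 1917.4 and 2147.2 to 2376 in the sham kidneys of these genotypes. Of 6 proximal tubule markers 2 fell in each genotype, and of 5 endothelial markers 3 fell in TLR4 null and 1 in wild-type kidneys. Endothelial Cdh5, not called, had higher ischemic than sham means, 287.9 against 215.7 in TLR4 null and 277.4 against 239.2 in wild-type kidneys. The loop of Henle and distal tubule had 1 of 5 markers lower in each genotype. Podocytes had 1 of 3 markers lower in TLR4 null and 0 in wild-type kidneys. Over all genes tested, 9.86% rose and 11.7% fell in TLR4 null kidneys, and 9.17% rose and 10.5% fell in wild-type kidneys. Adipocyte marker sums varied within every group, from 2233.2 to 8444.6 in TLR4 null ischemic, 4135.4 to 11700.9 in wild-type ischemic, 2681 to 5171.5 in TLR4 null sham and 4993.1 to 8291.4 in wild-type sham kidneys. The part of cell composition in the family's changes was not tested.

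For each family gene that was called, the genes closest to it over the 12 arrays were sought by the root mean square difference of log2 values centred on each gene's mean. Closest to Mcl1, whose log2 values span 1.80, were Vasn (0.12), the amino acid transporter gene Slc38a2 (0.123) and Tsc22d2 (0.127). Closest to Pmaip1, which spans 3.66, were the small heat shock protein gene Hspb1 (0.255), Phlda1 (0.281) and the heat shock gene Hspa1b (0.314). Bid, with a span of 1.22, was followed most closely by Fmo2 (0.118), the insulin receptor gene Insr (0.119) and Mtss1 (0.123). The nearest genes were Yap1 (0.061), Ppp4r3a (0.071) and Ythdf1 (0.072) for Bcl2l1, Cnst (0.084), Tmem134 (0.087) and Asah1 (0.091) for Bcl2, and Exoc3l2 (0.12), Wnt5a (0.134) and Zscan26 (0.141) for Bad. These 3 genes moved by less than Mcl1 and Pmaip1 did, with spans of 0.55, 0.59 and 1.29, so that a small difference is easier to reach for them.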

How the data were processed

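The authors deposited signal intensity values on a linear scale, and the submitters' processing notes name MAS5 as their source. Its version and scaling target are unstated in the labels. Each array's trimmed mean is 250, and this scaling was kept. The table holds 45101 probe sets, 64 of them controls. Its annotation names 1 gene for 34958 probe sets, several for 932 and none for 9160 that are not control probe sets, and 34754 of the 34958 matched the Entrez gene table.

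Values were taken as log2(signal + 15). Probe sets above their array's 40th percentile on at least 3 of 12 arrays were tested (30326), and the brightest one stood for each of 14322 genes. One limma 3.58.1 model in R 4.3.3 (lmFit, eBayes with trend, 8 residual degrees of freedom) held a mean for each of the 4 groups. Tests were two-sided, with Benjamini-Hochberg adjustment over all genes of each of 5 comparisons, or over all probe sets, and a threshold of 0.05. Arrays within a group are labelled as biological replicates. The number of arrays limits the precision of every value.

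The named genes are all 10 members, up to 4 genes per list with the smallest p in an ischemia comparison, any listed gene called between genotypes, and the 3 genes closest to each called member; others were named after their values were seen. The members and lists were chosen with earlier results of these data known. In simulated data of the wild-type comparison over 14322 genes, 50 genes were changed at each size. The fit called 14%, 64%, 88% and 100% of genes changed by 0.5, 1, 2 and 3 on the log2 scale, and 10 of its 143 calls were false. In the deposited data 2814 genes were called in this comparison. With fewer changed genes the adjusted threshold is stricter, so these shares do not give the recovery in the deposited data. Promoters were searched in Python 3.11.15 with pandas 2.3.3 and numpy 2.4.6, and figures drawn with matplotlib 3.10.9. Alternatives were quantile normalization, median scaling, pseudocounts of 1 and 60, no filter and the 60th percentile, averaging each gene's probe sets, no _x_at or _s_at probe sets, eBayes without the trend, the replicate number as a block, only the arrays compared, and leaving out each array.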

Additional observations from a re-analysis of the deposited data

How the results depend on the processing

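The calls of Mcl1, Pmaip1 and Bid in both genotypes held under the 11 other settings and without any single array, at 1.03 to 1.46 and 0.91 to 1.45 for Mcl1, 2.31 to 2.59 and 2.98 to 3.29 for Pmaip1 and -0.79 to -0.69 and -0.65 to -0.54 for Bid in TLR4 null and wild-type kidneys under those settings. Family genes called in TLR4 null kidneys numbered 3, in place of 5, with median scaling and with only the arrays compared, and 4 to 5 without any 1 array; in wild-type kidneys they numbered 3 with median scaling and when probe sets were averaged per gene, and 3 to 6 without any 1 array (3 without wild-type ischemic replicate 1 or 2 or wild-type sham replicate 2). Family probe sets called were 10 to 13 in TLR4 null and 8 to 12 in wild-type kidneys without any 1 array. The Bad call ended with the mean of its probe sets (adjusted p = 0.0504), median scaling (0.0549) and only the arrays compared (0.0614). No family gene was called between genotypes or in the interaction under any setting. Over all genes, median scaling called 2014 in TLR4 null kidneys (1094 higher, 920 lower, against 1412 and 1676) and 1788 in wild-type kidneys (1239 higher, 549 lower, against 1313 and 1501); without any 1 array the counts were 2390 to 3059 and 2062 to 3089. TLR4 null against wild type called 94 genes in ischemic kidneys. That count was 20 without the trend, 47 without the filter, 17 with only the arrays compared and 10 to 245 without any 1 array. In sham kidneys 45 genes were called. The sham count was 22 with median scaling, 4 to 81 over the 11 other settings and 2 to 61 without any 1 array. The interaction called 0 to 15 genes, 15 without TLR4 null ischemic replicate 3. The cause of these shifts was not tested.

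Replicate numbers are shared by all groups, and the labels do not say whether a number marks a shared litter or day. Deviations of same-numbered arrays correlated at -0.062 to 0.104 over 18 pairs, against -0.129 to 0.143 over 36 pairs with different numbers. Of 12 arrays, 5 correlated best with their own number. Same-numbered arrays were thus not seen to be closer. With few arrays per group, these values cannot decide whether the numbers pair the arrays. With the replicate block, 61 genes were called between the ischemic groups, Bcl2 in wild-type kidneys moved to an adjusted p of 0.0555 and Bcl2l11 to 0.0414.

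Signs turned only for values that were not called. With the mean of probe sets, the sham genotype difference became -0.10 for Bcl2l1, -0.02 for Bad and 0.09 for Bcl2l11, and the Bcl2l1 interaction 0.16; with median scaling the sham difference became 0.01 for Bcl2l11 and for Pmaip1 and the Mcl1 interaction -0.02. Without any 1 array, the interaction ran from -0.15 to 0.31 for Bbc3, -0.04 to 0.14 for Mcl1, -0.11 to 0.03 for Bcl2l1 and -0.10 to 0.58 for Bak1; the sham difference from -0.44 to 0.02 for Bbc3, -0.10 to 0.06 for Bcl2l11, -0.23 to 0.17 for Pmaip1 and -0.12 to 0.03 for Bcl2; and the wild-type ischemia value from -0.22 to 0.45 for Bak1 and -0.08 to 0.10 for Bok. In simulated data with 3 arrays per group, changes of 0.5 log2 units were mostly missed. Only 50 genes were changed at each size there, so the share missed in the deposited data is not known from it.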
